A study of Mus musculus with 12 samples.

Results

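The 10 genes examined here encode lipoxygenases and the enzymes that make, oxidise and repair polyunsaturated phospholipids. They are *Alox12*, *Alox5*, *Alox15*, *Acsl4*, *Acsl3*, *Lpcat3*, *Gpx4*, *Aifm2*, *Ptgs2* and *Sat1*. They were found by gene symbol, and all 10 were present among the 45777 genes of the table. Liver RNA was sequenced from 12 male C57BL/6 mice, which were either WT or labelled Gα12-/- (the KO label below) and received either vehicle or APAP, with 3 livers for each of the 4 combinations. APAP is acetaminophen, which injures the liver when overdosed. The methods of the study give a single intraperitoneal dose of 300 mg/kg after an overnight fast and tissue taken 6 h later, with WT littermates as controls. The labels give an age of 10 to 12 weeks for every mouse and the methods give 8 to 12 weeks. Whole liver was used, so the values below are sums over all the cell types of the tissue.

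Ferroptosis is a form of cell death in which iron drives the peroxidation of polyunsaturated fatty acids in membrane phospholipids. *Acsl4* activates arachidonic and related fatty acids, *Lpcat3* inserts them into phospholipids, and lipoxygenases and free radical chemistry oxidise them. *Gpx4* reduces the resulting lipid hydroperoxides with glutathione, and *Aifm2* regenerates radical-trapping coenzyme Q at membranes. APAP overdose consumes hepatic glutathione, which is why this pathway has been studied in the injured liver.

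The total count per liver ranged from 49737950 to 69566079. Hepatocyte markers were high in every liver, with summed counts of 3756033 to 7479778 over 8 genes. The deletion targets *Gna12*, which had 1193 to 4373 counts in the 6 WT livers and 2472 to 4003 in the 6 livers of the KO label. These ranges overlap and the count of the whole gene was not lower under the KO label, so each library is named by its label. The study reports checks of its knockout mice by PCR of tail DNA, qRT-PCR of *Gna12* in liver and immunoblots of Gα12. Counts per gene do not show which exons were read, so they cannot decide whether the targeted part was missing. WT APAP replicate 1 stood apart: 7 erythroid markers summed to 874389 counts in it (1.30% of the library), against 14477 to 33897 in the other livers. Its 9 neutrophil markers summed to 6482 counts, against 58 to 1349 in the other livers. WT vehicle replicate 2 also differed from the other vehicle livers. It had 173 counts of *Atf3* (23 to 37 in the others), 1388 of *Cdkn1a* (164 to 382) and 2301 of *Hmox1* (484 to 972). It had 15727 counts of *Fads2*, against 33230 to 43558, and a neutrophil sum of 888, against 58 to 149.

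Per transcript length, the members spanned a wide range of abundance. The median deposited TPM (a length-scaled measure of transcript abundance) over the 12 livers was 381 for *Gpx4*, 119 for *Sat1*, 59.7 for *Lpcat3*, 20.1 for *Aifm2*, 11.5 for *Acsl4*, 3.95 for *Acsl3* and 0.453 for *Alox12*. The remaining 3 were close to absent, with median TPM values of 0.0152 for *Alox15*, 0.0117 for *Ptgs2* and 0.0108 for *Alox5*. The enzyme that removes lipid peroxides was therefore the most abundant transcript of the group, and the 3 lipoxygenases and *Ptgs2* were the least abundant.

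**Figure D1:**
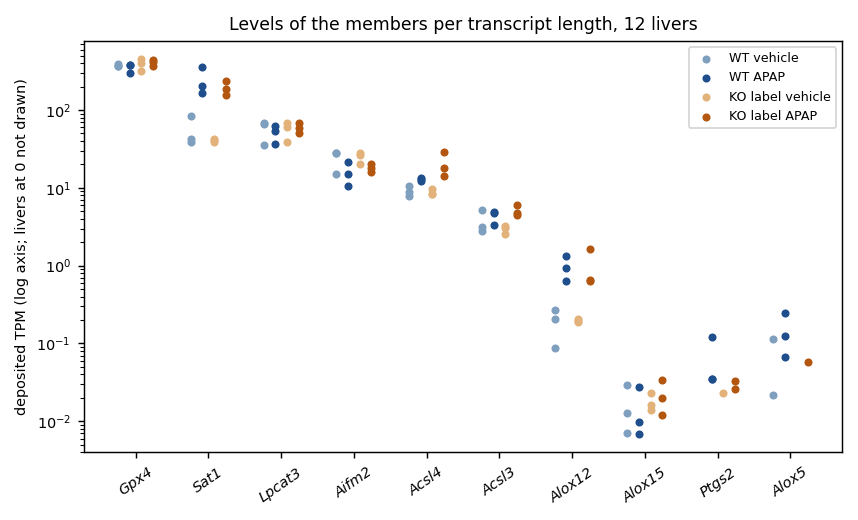
Deposited TPM of each member in each of the 12 livers, on a log axis, with colours for the 4 groups. Livers at 0 are not drawn (6 for *Alox5* and 6 for *Ptgs2*), and the median levels fall from 381 for *Gpx4* to 0.0108 for *Alox5*.

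The study asked whether *Alox12* is controlled by miR-15a, a small RNA that binds messenger RNAs through its seed (bases 2 to 8), so the sequences that bear on this are shown first. The mature miRNA, from RefSeq on GRCm38.p6, lies on the minus strand at chr14:61632075-61632096. The seed match TGCTGCT was searched on the transcript strand in the GENCODE vM21 3′ UTRs of GRCm38, with capitals marking the seed or its match.
miR-15a-5p: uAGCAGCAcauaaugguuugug
Alox12, minus strand, chr11:70242291-70242320: gtgccttcttatgtcTGCTGCTgagactct
Acsl4, minus strand, chrX:142318699-142318728: taacacaaggttgggTGCTGCTaattcttc
Aifm2, plus strand, chr10:61738026-61738055: gtgggtggggagctgTGCTGCTcatttcct
Aifm2, plus strand, chr10:61738420-61738449: ctttgtccccggctcTGCTGCTgtggacac

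These 3 genes are shown, with their values already seen, because their transcripts passed the test under the KO label. The match was present in at least 1 annotated 3′ UTR of 5 of the 10 members (*Alox12*, *Alox5*, *Acsl4*, *Aifm2* and *Ptgs2*), and in 24.3% of the 21153 genes with a 3′ UTR. Of the 5 genes with the match, *Alox12* and *Acsl4* rose and *Aifm2* fell under the KO label, while *Alox5* and *Ptgs2* did not pass the filter on low counts there. *Sat1* and *Acsl3*, which also rose there, had no match. The miRNA itself was not measured by these poly-A libraries: the *Mir15a* precursor had 0 to 2 counts in every liver. *Dleu2*, the long noncoding RNA that hosts it, had 267 to 362 counts per liver, and its log2 fold change after APAP was -0.07 in WT (SE 0.23, adjusted p = 0.911) and -0.19 under the KO label (SE 0.18, adjusted p = 0.475) in edgeR's quasi-likelihood test.

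*Alox12* encodes the platelet-type arachidonate 12-lipoxygenase and lies on chromosome 11 from 70241457 to 70255380 (GRCm38.p6, minus strand). It had 9, 27 and 21 counts in WT livers given vehicle and 205, 104 and 75 after APAP. In the livers of the KO label it was counted 20, 18 and 20 times with vehicle and 58, 67 and 161 times with APAP. Every APAP liver was therefore above every vehicle liver, under either label. As CPM (counts scaled to a common library size, here after TMM normalization), the level went from 0.385 ± 0.201 (SD, n = 3) to 2.22 ± 1.61 in WT mice and from 0.376 ± 0.0575 to 1.46 ± 0.722 under the KO label.

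The log2 fold change of *Alox12* after APAP was 2.53 in WT (SE 0.65), and its adjusted p of 0.0971 in edgeR's quasi-likelihood test missed the threshold of 0.05. Without WT APAP replicate 1, which held the highest count, the value was 1.74 (SE 0.52, adjusted p = 0.157). Under the KO label the log2 fold change was 1.97 (SE 0.41, adjusted p = 0.0120), and the gene passed in 5 of 6 fits with 1 liver left out, but not without KO vehicle replicate 2 (adjusted p = 0.0519). In a model of all 12 livers with label and treatment as terms, chosen after seeing the data, *Alox12* rose by 2.24 on the log2 scale (SE 0.40, adjusted p = 0.00149), or 4.72-fold. It passed in all 12 fits with 1 liver left out, with values from 1.87 to 2.37.

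*Alox12* is abundant in platelets, and the summed raw count of 9 platelet markers was also higher after APAP. It was 662 to 864 in the 6 vehicle livers and 1202 to 2516 in the 6 APAP livers, not scaled to library size. Most of these counts came from *Itgb3* (208 to 386 with vehicle, 462 to 781 with APAP) and *Clec1b* (214 to 344 and 418 to 898). *Itga2b* overlapped between treatments, with 124 to 212 counts with vehicle and 114 to 390 with APAP. Of the 5 markers that could be tested over both labels, 4 were higher after APAP at the threshold. So were 4 of 8 tested markers of sinusoidal endothelium, with 0 lower, so the rise was not particular to the platelet list. *Gp6*, *Treml1*, *Ppbp* and *Pf4* were sparse. After APAP *Gp6* had 28, 0 and 0 counts in WT livers and 0, 3 and 5 under the KO label. *Treml1* had 44, 0 and 0 counts in WT livers and 6, 0 and 6 under the KO label. *Ppbp* was at 0 in all 6 vehicle livers. After APAP it had 268, 24 and 12 counts in WT livers and 0, 13 and 24 under the KO label. *Pf4* had 8 to 19 counts in the vehicle livers, 325, 26 and 35 in the WT APAP livers and 28, 12 and 32 in the APAP livers of the KO label. In bulk tissue a change in the number of cells of a type and a change in RNA per cell cannot be told apart, and the part of platelets in the *Alox12* change was not tested. Of 4 keratinocyte markers, *Krt14* and *Krt1* were at 0 in all 12 livers and *Krt10* had 30 to 69 counts in every liver. *Krt5* was at 0 in all 6 vehicle livers and had 0, 9 and 10 counts in the WT APAP livers and 7, 0 and 16 in the APAP livers of the KO label, and the part of these cells was not tested.

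A stretch of 173 bases in the 3′ UTR of 1 annotated *Alox12* transcript (bases 2567 to 2739 of 3001) matched transcripts of 55 other genes at 90% to 93.2% identity. How reads shared between similar transcripts were assigned is not given in the sources used here, so a part of the low *Alox12* counts is uncertain.

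**Figure D2:**
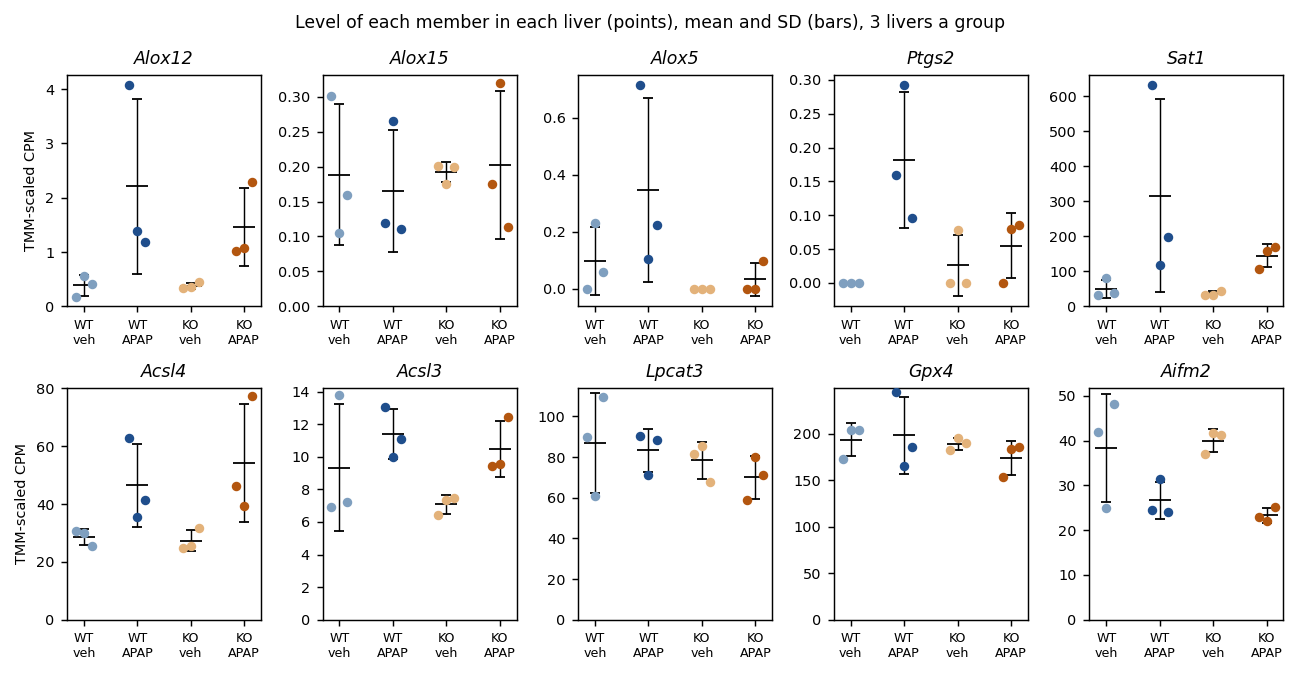
TMM-scaled CPM of each member in each liver (points), with the mean and SD of 3 livers per group (bars), on linear axes that differ between genes. *Alox12*, *Sat1* and *Acsl4* are higher in all 6 APAP livers than in all 6 vehicle livers, while the *Gpx4* values overlap between all 4 groups.

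The other lipoxygenases of the group were near the detection limit. *Alox15*, the 12/15-lipoxygenase that can oxidise fatty acids still bound in phospholipids, had 5 to 20 counts in every liver. Its log2 fold change under the KO label was 0.08 (SE 0.50, adjusted p = 0.923 in edgeR's test), and in WT it did not pass the filter on low counts.

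*Alox5* starts leukotriene synthesis and is used mainly by myeloid cells. It had 0, 11 and 3 counts in WT livers given vehicle and 36, 8 and 14 after APAP. In the KO-labelled mice it was counted 0 times in all 3 vehicle livers and 0, 0 and 7 times after APAP. A count of 0 allows up to 3 counts in that library. The log2 fold change in WT was 1.84 (SE 1.13, adjusted p = 0.436 in edgeR's test), with 0.77 (SE 1.18, adjusted p = 0.788) without WT APAP replicate 1 and 3.46 (SE 1.38, adjusted p = 0.239) without WT vehicle replicate 2. Over both labels it was 2.13 (SE 1.01, adjusted p = 0.146), and it passed only without WT vehicle replicate 2 (adjusted p = 0.0463) among the 12 fits with 1 liver left out.

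Neutrophil marker sums followed *Alox5* in part between livers. The 9 markers summed to 112, 888 and 58 counts in the WT vehicle livers and 6482, 960 and 1349 in the WT APAP livers. The sums were 149, 79 and 96 with vehicle and 242, 75 and 596 with APAP under the KO label. The highest sum and the highest *Alox5* count fell in the same liver, WT APAP replicate 1, and within the WT vehicle group both were highest in replicate 2. In WT APAP replicate 1, *S100a9* gave 3384 and *S100a8* 1598 counts of the neutrophil sum. Other myeloid markers did not follow *Alox5* in this way. The sum of 9 Kupffer cell and macrophage markers was 10392, 6161 and 7591 in the WT vehicle livers and 13648, 18220 and 7318 in the WT APAP livers. The sum of 6 monocyte markers was 1425, 1223 and 745, then 2690, 2817 and 1131, in the same order. The part of any of these cells in the *Alox5* counts was not tested. *Alox5ap*, the protein that presents arachidonate to this enzyme, had 346, 169 and 58 counts in the WT APAP livers, against 56 to 110 in the 6 vehicle livers (log2 fold change in WT 1.44, SE 0.67, adjusted p = 0.312 in edgeR's test).

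*Aloxe3*, an epidermal lipoxygenase outside the 10 members, was at 0 in all 6 vehicle livers. After APAP it had 6, 279 and 77 counts in WT livers and 144, 10 and 148 in livers of the KO label. Against a floor of 3 counts per library, its mean CPM was at least 28.2-fold higher in WT and at least 27.3-fold higher under the KO label. This holds for the means only, since single APAP livers had as few as 6 counts in WT and 10 under the KO label. Within either label it did not pass the filter on low counts. It passed over both labels in edgeR's test (adjusted p = 0.00463). Among the WT APAP livers, replicate 1 had the lowest *Aloxe3* count and the highest *Alox12* count. *Alox12b* and *Alox8* were at 0 in all 12 livers, and *Alox12e* had at most 2 counts.

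*Ptgs2* encodes inducible cyclooxygenase (COX-2), whose transcript is widely used as a marker of ferroptosis. It was counted 0 times in all 3 WT vehicle livers and 8, 22 and 6 times after APAP. In the KO-labelled mice it was counted 0, 4 and 0 times with vehicle and 0, 5 and 6 times with APAP. Against a floor of 3 counts per library, its mean CPM was at least 3.05-fold higher in the WT APAP livers than in the WT vehicle livers. The gene did not pass the filter on low counts. In fits that kept it, its adjusted p in WT was 0.107 with edgeR and 0.0341 with DESeq2's Wald test. For the KO label edgeR's adjusted p without the filter was 0.716. Over both labels edgeR's adjusted p without the filter was 0.139. The transcript was thus rare also after APAP, with at most 22 counts in a liver.

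*Sat1* encodes spermidine/spermine acetyltransferase, the rate-limiting enzyme of polyamine breakdown, and lies on chromosome X from 155213126 to 155216449 (minus strand). Its level was 32.1, 79.5 and 39.0 CPM in the WT vehicle livers and 631, 119 and 197 CPM in the WT APAP livers. In the livers of the KO label it was 32.3, 33.4 and 45.2 CPM with vehicle and 106, 158 and 168 CPM with APAP. All 6 APAP livers lay above all 6 vehicle livers, with WT APAP replicate 1 far above the rest. The TMM factor of that liver was 0.750, against 0.892 to 1.13 in the others, and a low factor raises CPM. As deposited TPM its *Sat1* level was 357, against 164 and 202 in the other WT APAP livers and at most 240 under the KO label.

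The log2 fold change of *Sat1* in WT was 2.67 (SE 0.66, adjusted p = 0.0897 in edgeR's test), and 1.66 (SE 0.43, adjusted p = 0.120) without WT APAP replicate 1. In WT it passed only without WT APAP replicate 2 (adjusted p = 0.0484) among the fits with 1 liver left out. It rose under the KO label by 1.97 (SE 0.21, adjusted p = 0.00107) and passed in 6 of 6 fits with 1 liver left out. Over both labels it rose by 2.31 (SE 0.38, adjusted p = 0.000980), or 4.95-fold. The pseudogene *Gm5552* is 92.9% identical to *Sat1* over 536 bases and had 24 to 393 counts per liver.

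The genes with the pattern most like that of *Sat1* were *Tiparp*, *Dusp6* and *H3f3b*. Likeness was the root mean square difference of log2 CPM, centred on each gene's mean, over the 12 livers, among 10912 genes with a mean of at least 1 on that scale. It was 0.27, 0.31 and 0.35, against 1.28 for the spread of *Sat1* itself. *Alox12* (mean -0.31) and *Ptgs2* lay under that minimum and were not compared.

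*Acsl4*, which favours arachidonic acid and sets the supply of oxidisable phospholipid, was higher after APAP. Its level was 30.5, 30.0 and 25.5 CPM in the WT vehicle livers and 62.8, 35.5 and 41.4 CPM in the WT APAP livers. In the livers of the KO label it was 24.9, 25.5 and 31.6 CPM with vehicle and 46.3, 39.2 and 77.5 CPM with APAP. The groups did not overlap, but 1 liver of each APAP group was well above the other two.

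The log2 fold change of *Acsl4* was 0.71 in WT (SE 0.24, adjusted p = 0.175) and 1.00 under the KO label (SE 0.25, adjusted p = 0.0235) in edgeR's test. Without WT APAP replicate 1 the WT value was 0.42 (SE 0.15, adjusted p = 0.213). Without KO APAP replicate 3 the value under the KO label was 0.66. It passed under the KO label in 3 of 6 fits with 1 liver left out. The largest adjusted p of those was 0.0879, without KO vehicle replicate 2. Over both labels it rose by 0.84 (SE 0.18, adjusted p = 0.00501), or 1.80-fold, and passed in all 12 fits with 1 liver left out.

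*Acsl3* activates mainly monounsaturated fatty acids, which compete with the oxidisable ones. It rose under the KO label by 0.58 on the log2 scale (SE 0.16, adjusted p = 0.0323 in edgeR's test), from 7.07 ± 0.561 CPM (SD, n = 3) to 10.5 ± 1.71 CPM, and passed in 2 of 6 fits with 1 liver left out. In WT its level was 9.32 ± 3.89 CPM with vehicle and 11.4 ± 1.53 CPM with APAP. WT vehicle replicate 2, at 13.8 CPM, was the highest of these 6 livers, and the log2 fold change was 0.30 (SE 0.30, adjusted p = 0.640). The WT value was 0.69 (SE 0.22, adjusted p = 0.164) without that liver, 0.12 without WT vehicle replicate 1 and 0.18 without WT APAP replicate 1. Over both labels it was 0.43 (SE 0.17, adjusted p = 0.0919), and it passed only without WT vehicle replicate 2 (adjusted p = 0.00276).

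*Lpcat3*, the acyltransferase that follows *Acsl4*, had 86.9 ± 24.5 CPM in WT vehicle livers and 83.2 ± 10.5 CPM in WT APAP livers (SD, n = 3). Its log2 fold change was -0.05 in WT (SE 0.24, adjusted p = 0.935) and -0.15 under the KO label (SE 0.15, adjusted p = 0.508) in edgeR's test. Over both labels the value was -0.11 with an SE of 0.14, so no change was detectable. *Lpcat3* overlaps *Emg1* on the other strand (1199 to 1865 counts), and the strand setting of the counting is not given in the sources used here.

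*Gpx4* encodes the selenoenzyme that reduces phospholipid hydroperoxides, and lies on chromosome 10 from 80047166 to 80056439 (plus strand). Its level was 173, 203 and 204 CPM in the WT vehicle livers and 245, 165 and 185 CPM in the WT APAP livers. In the livers of the KO label it was 182, 195 and 189 CPM with vehicle and 153, 184 and 185 CPM with APAP. The values of the 4 groups overlapped, and the widest spread was within the WT APAP group.

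The log2 fold change of *Gpx4* was 0.05 in WT (SE 0.21, adjusted p = 0.932) and -0.11 under the KO label (SE 0.13, adjusted p = 0.563) in edgeR's test. On quantile-normalized log2(TPM + 1) values the WT difference was -0.10, and without WT APAP replicate 1 it was -0.14 (SE 0.16), so even its sign depended on the scaling and on 1 liver. Over both labels the value was -0.04 with an SE of 0.11. The sequence of the pseudogene *Gpx4-ps2* is 99.7% identical over 762 bases. It had 989 to 1877 counts, against 8570 to 12995 for *Gpx4*, so some reads may be split between the genes. The genes with the most similar pattern were *Acaa2*, *Selenow* and *Prdx5*, at root mean square differences of 0.07, 0.08 and 0.08, against 0.16 for the spread of *Gpx4* itself.

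*Aifm2* (FSP1) was the member that fell. Its level was 42.0, 24.9 and 48.1 CPM in the WT vehicle livers and 24.4, 31.4 and 24.1 CPM in the WT APAP livers. In the livers of the KO label it was 37.0, 41.7 and 41.3 CPM with vehicle and 22.9, 22.0 and 25.2 CPM with APAP. The groups did not overlap under the KO label, and in WT vehicle replicate 2 lay among the APAP livers.

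*Aifm2* fell under the KO label by 0.77 on the log2 scale (SE 0.12, adjusted p = 0.00392 in edgeR's test), 1.70-fold lower, and passed in 6 of 6 fits with 1 liver left out. In WT the log2 fold change was -0.52 (SE 0.26, adjusted p = 0.352). Over both labels it was -0.65 (SE 0.15, adjusted p = 0.00616), and it passed in all 12 fits with 1 liver left out. A stretch of 235 bases is identical in *Aifm2* and a transcript of the overlapping gene *Macroh2a2*, which had 11 to 50 counts.

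**Figure D3:**
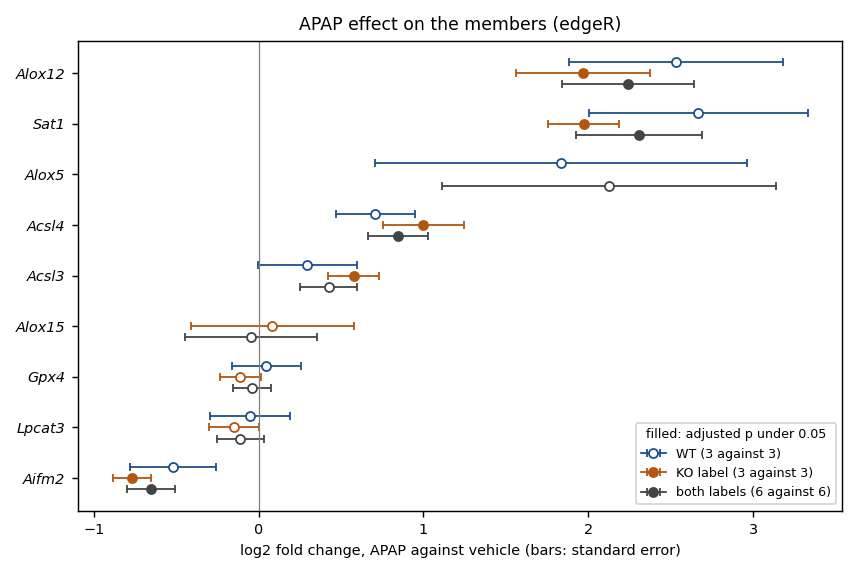
Log2 fold change of the tested members after APAP, with standard errors, in WT, under the KO label and over both labels. Filled points have an adjusted p under 0.05: none in WT, 5 under the KO label (*Alox12*, *Sat1*, *Acsl4*, *Acsl3* and *Aifm2*) and 4 over both labels.

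Counted together, 8 of the 10 members passed the filter on low counts in WT and 0 of these were called. Of the 15693 genes tested in WT, 2.05% were called (255 higher and 67 lower). At an unadjusted p under 0.05, 2817 of the 15693 genes and 3 of the 8 members (*Alox12*, *Sat1* and *Acsl4*) passed. DESeq2's Wald test called 3 members in WT (*Alox12*, *Ptgs2* and *Sat1*), and edgeR with all 12 livers in one fit called 2 (*Alox12* and *Sat1*). Under the KO label 8 members were tested and 5 were called, 4 higher and 1 lower, against 22.6% of the 15665 genes tested (2034 higher and 1504 lower). The median log2 fold change was 0.50 over the tested members in WT, with 0.03 over all genes tested, and 0.33 under the KO label, with -0.02 over all genes.

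Over both labels 9 members were tested and 4 were called, 3 higher and 1 lower, against 25.4% of 16509 genes (2307 higher and 1880 lower). All 6 APAP livers lay above all 6 vehicle livers for 3 of the 10 members, and for 7.11% of the 16509 genes. The more frequent calls under the KO label than in WT do not show a larger response there, since the difference itself was tested as the interaction below.

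**Figure D4:**
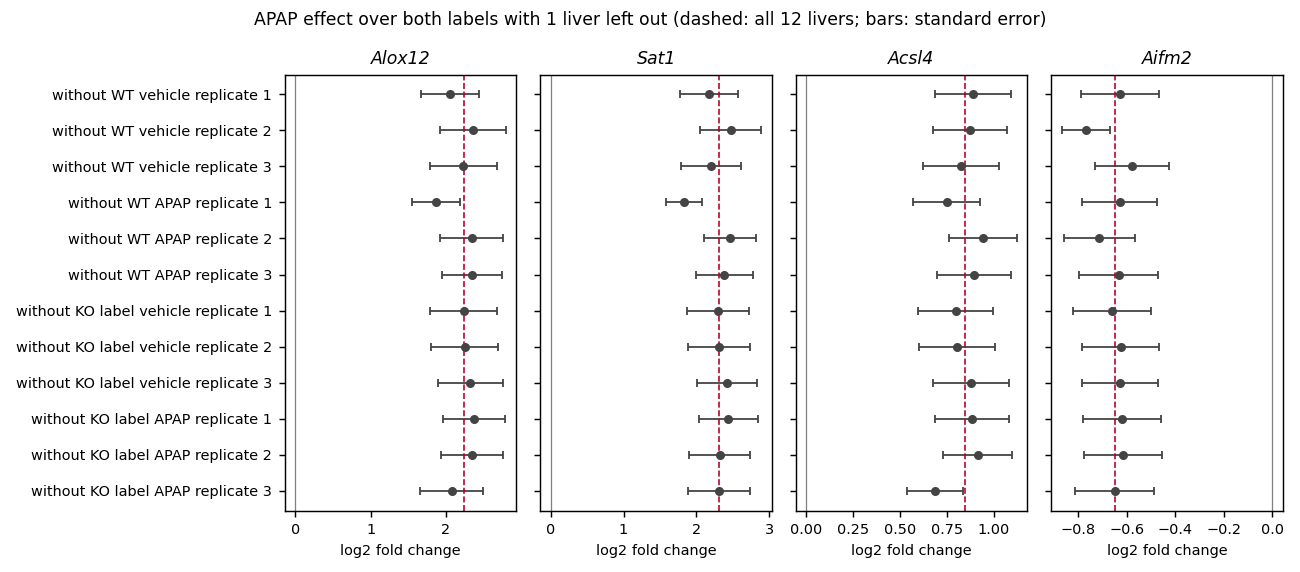
Log2 fold change after APAP over both labels for the 4 called members when each of the 12 livers is left out, with standard errors. The dashed line is the value with all 12 livers, and leaving out WT APAP replicate 1 lowers *Alox12* from 2.24 to 1.87 and *Sat1* from 2.31 to 1.83.

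WT livers were next compared with livers of the KO label after APAP, by label only, since *Gna12* counts were not lower under that label. In this comparison 8 members were tested and 0 were called, against 0.0309% of 16174 genes called in either direction. At an unadjusted p under 0.05, 536 genes and 0 members passed, and DESeq2's Wald test also called 0 members. *Sat1* had the largest difference, 1.15 higher in WT on the log2 scale (SE 0.56, adjusted p = 0.958 in edgeR's test), and 0.14 (SE 0.28) without WT APAP replicate 1. The *Alox12* difference was 0.62 higher in WT (SE 0.56, adjusted p = 0.958), and turned to -0.18 (SE 0.43) without that liver. As deposited TPM, *Alox12* was 0.967 ± 0.352 in WT APAP livers and 0.975 ± 0.571 under the KO label (SD, n = 3). The *Gpx4* difference was 0.20 (SE 0.21), and 0.01 (SE 0.16) without WT APAP replicate 1.

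For 2 of the 10 members, *Alox5* and *Ptgs2*, all 3 WT APAP livers lay above all 3 APAP livers of the KO label in CPM, against 3.20% of the 25349 genes with a count. Both had at most 36 counts in any liver. For *Ptgs2*, WT APAP replicate 3 and KO APAP replicate 3 both had 6 counts, so only the scaling set them apart. For *Alox5* the closest counts were 8 in WT APAP replicate 2 and 7 in KO APAP replicate 3. Without the filter on low counts, edgeR's adjusted p was 0.844 for each. The neutrophil sums given above were also higher in the 3 WT APAP livers, at 960 to 6482 counts, than in the 3 of the KO label, at 75 to 596 counts.

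With vehicle, 7 members were tested between the labels and 0 were called, against 0.0262% of 15262 genes. At an unadjusted p under 0.05, 1154 genes and 0 members passed, and DESeq2's Wald test called 0 members. The largest differences were 0.44 for *Sat1* (SE 0.33) and 0.40 for *Acsl3* (SE 0.27), both higher in WT and both close to 0 without WT vehicle replicate 2 (-0.07 and -0.01). *Alox12* differed by 0.03 (SE 0.48).

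The interaction of label and treatment, the difference between the APAP effect in WT and under the KO label, was tested on all 12 livers. Of 9 members tested 0 were called, as were 0% of 16509 genes. At an unadjusted p under 0.05, 848 genes and 0 members passed, and DESeq2's Wald test called 0 members. The value was 0.56 for *Alox12* (SE 0.79, adjusted p = 0.919), 0.69 for *Sat1* (SE 0.73, adjusted p = 0.895) and 0.16 for *Gpx4* (SE 0.23, adjusted p = 0.922). Without WT APAP replicate 1 all 3 changed sign, to -0.23 for *Alox12* (SE 0.67), -0.33 for *Sat1* (SE 0.50) and -0.04 for *Gpx4* (SE 0.19). The standard errors of *Alox12* and *Sat1* exceed their values, so an interaction of that size was not detectable with 3 livers per group.

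The genes around the members were read from lists of the same pathways. Of all genes tested, 2.05% were called in WT and 22.6% under the KO label (2034 higher and 1504 lower). Whether a list exceeded these shares was not tested. Cystine import and glutathione supply gave the most calls in WT: 4 of 12 tested genes rose and 0 fell, and under the KO label 7 rose and 0 fell. The list's median log2 fold change was 0.83 in WT and 0.55 under the KO label. The list also holds *Chac1* and *Tfrc*, which do not themselves supply cystine or glutathione, so these values are not of supply genes alone. *Chac1* had 60 to 282 counts with vehicle and 1022 to 2538 with APAP under the KO label. *Slc7a11*, the cystine transporter, was at 0 in all 3 WT vehicle livers and at 73, 170 and 210 counts after APAP (adjusted p = 0.0110 in edgeR's test). Against a floor of 3 counts per library, its mean CPM was at least 39.4-fold higher. *Gclc*, the catalytic subunit that limits glutathione synthesis, rose by 3.08 in WT (SE 0.22, adjusted p = 0.00248) and by 3.11 under the KO label (SE 0.24, adjusted p = 0.000235). *Slc3a2*, the partner of *Slc7a11*, rose by 1.55 (SE 0.25) and 1.43 (SE 0.13). *Gsr*, glutathione reductase, rose by 0.97 (SE 0.12) under the KO label.

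Of the 23 tested genes for lipid peroxide repair and radical trapping, *Gpx4* and *Aifm2* included, 1 rose in WT and 0 fell, with 2 rising and 3 falling under the KO label. The calls under the KO label were near the share over all genes tested there, 22.6%. *Txnrd1*, thioredoxin reductase, rose by 1.59 in WT (SE 0.30, adjusted p = 0.0446) and by 2.21 under the KO label (SE 0.20, adjusted p = 0.000513). *Nqo1*, a quinone reductase, rose by 1.55 under the KO label (SE 0.21, adjusted p = 0.00249). *Sepsecs*, which makes the selenocysteine tRNA needed by *Gpx4*, fell by 0.57 (SE 0.11, adjusted p = 0.0106), and the selenium carrier *Selenop* fell by 0.63 (SE 0.18, adjusted p = 0.0361), both in edgeR's test under the KO label. The list's median was -0.21 in WT and -0.14 under the KO label.

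Of the 16 tested genes of iron supply, 1 rose in WT and 0 fell, and under the KO label 4 rose and 3 fell. *Hmox1*, the heme oxygenase that releases iron from heme, rose by 4.98 in WT (SE 0.70, adjusted p = 0.0174) and by 5.79 under the KO label (SE 0.28, adjusted p = 3.03e-05). The ferritin subunits *Fth1* and *Ftl1*, which store iron, rose under the KO label by 0.97 (SE 0.16) and 0.69 (SE 0.17). The ferrireductase *Steap3* fell there by 0.91 (SE 0.17), *Aco1* by 0.54 (SE 0.12) and *Cisd1* by 0.65 (SE 0.18).

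Among 12 tested genes of the polyamine pathway, *Sat1* and *Smox* moved together under the KO label. *Smox*, spermine oxidase, rose by 1.67 in WT (SE 0.33, adjusted p = 0.0493 in edgeR's test), where it was the 1 call of the list, and by 1.58 under the KO label (SE 0.30, adjusted p = 0.00913). It was counted 85 to 106 times in WT vehicle livers and 278 to 451 times after APAP. The median of the list was 0.08 in WT and 0.19 under the KO label.

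The 3 lists of genes that make the substrates and products of these enzymes gave 0 calls in WT, and 4 rises and 6 falls under the KO label. Of 12 tested genes of the prostanoid branch, 1 rose (*Ptges3*, by 0.64, SE 0.17) and 3 fell. *Hpgd*, which inactivates prostaglandins, fell by 1.21 (SE 0.16, adjusted p = 0.00264), *Tbxas1*, thromboxane synthase, by 0.85 (SE 0.26) and constitutive *Ptgs1* by 0.59 (SE 0.17). Of 12 tested genes of polyunsaturated fatty acid synthesis, 0 rose and 2 fell, the desaturase *Fads2* by 0.87 (SE 0.17, adjusted p = 0.00941) and the elongase *Elovl2* by 0.71 (SE 0.15, adjusted p = 0.0120). That is not above the 22.6% of all genes called under the KO label. Of 12 acyl-CoA synthetase and remodelling genes, 3 rose (*Acsl4*, *Acsl3* and *Agps*, the last by 0.57, SE 0.14) and *Lpcat2* fell by 1.19 (SE 0.31, adjusted p = 0.0278). In WT the smallest p values of these 3 lists belonged to *Ptgr1* (log2 fold change 1.09, adjusted p = 0.187), *Elovl6* (-0.58, adjusted p = 0.243) and *Far1* (1.07, adjusted p = 0.112).

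Of 5 tested genes of the lipoxygenase and leukotriene list, 0 were called in WT and 1 (*Alox12*) under the KO label. Of 24 other genes named in work on ferroptosis, 2 rose and 0 fell in WT, and 8 rose and 1 fell under the KO label. *Atf3*, a stress-induced transcription factor, went from 1.67 ± 1.69 CPM to 590 ± 89.4 CPM in WT (SD, n = 3, adjusted p = 0.00659 in edgeR's test). The chaperone *Hspa5* rose by 1.71 in WT (SE 0.26) and by 1.82 under the KO label (SE 0.16). *Cdkn1a*, a cell cycle inhibitor, rose by 4.57 under the KO label (SE 0.42, adjusted p = 0.000524), and *Dpp4* fell there by 0.53 (SE 0.15, adjusted p = 0.0351).

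**Figure D5:**
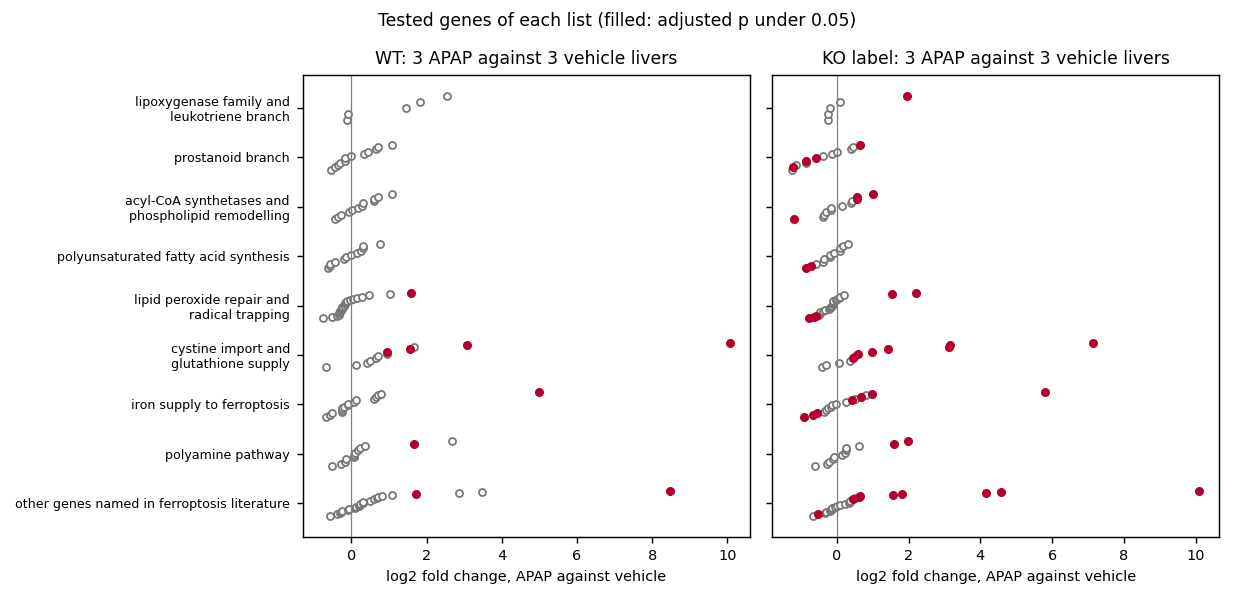
Log2 fold change after APAP of the tested genes in 9 lists, in WT (left) and under the KO label (right), each from 3 APAP and 3 vehicle livers. Filled points have an adjusted p under 0.05, and fitted values of genes at 0 with vehicle, such as *Slc7a11* in WT, depend on the fit and are no measure of size.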

How the data were processed

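Poly-A RNA libraries (TruSeq Stranded mRNA) were made from 12 mouse livers and sequenced as paired reads of 100 bases on an Illumina instrument. The submitters' processing notes name FastQC 0.11.7, Trimmomatic 0.38, HISAT2 2.1.0, Bowtie2 2.3.4.1, StringTie 2.1.3b and the mm10 (GRCm38) build. For 45777 genes the authors deposited, per liver, read counts as whole numbers without normalization, FPKM values scaled by transcript length and library size, and TPM values before the logarithm and quantile normalization of the study. FPKM values deposited by the authors were used in no result. All sample columns were assigned by name (0 left unassigned), and 0 entries lacked a gene name.

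edgeR 4.0.16 (R 4.3.3) was run on TMM-scaled counts of the genes kept by filterByExpr, using its quasi-likelihood test, with the Benjamini-Hochberg adjustment and a threshold of 0.05. Each comparison used only its 6 livers, and the interaction used all 12. The SE given with edgeR's test is the absolute log2 fold change divided by the square root of the test's F statistic. The additive model of all 12 livers and edgeR's newer quasi-likelihood method were added after seeing the data. Alternatives were the size factors and Wald test of DESeq2 1.42.0, no filter, at least 10 counts in every liver, a block for the replicate number, one fit over all 12 livers, each liver left out, and limma 3.58.1 on TPM after quantile normalization, with 1 or 0.1 added before taking log2. The scripts were tested on simulated data. Floors cover counting error only, whereas the SDs and SEs include variation between livers.

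The members and lists were chosen with earlier results of these data known. Named are all members, the targeted gene, at most 3 called genes per list and direction by smallest p (or 1 where none was called), and the 3 genes nearest in pattern to *Alox12*, *Gpx4*, *Ptgs2* and *Sat1*, where these had a mean of at least 1 log2 CPM. *Aloxe3* follows this rule over both labels, and other lipoxygenases were named after their values were seen. Similar transcripts (at least 90% identity over 100 bases) were found with BLAST 2.17.0 in GENCODE vM21, and positions came from RefSeq, whose GRCm38.p6 table held 45679 of the symbols. Each library is a separate liver.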

Additional observations from a re-analysis of the deposited data

How the results depend on the processing

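With 3 livers per group, counts near 0 (*Alox5*, *Ptgs2*, *Alox15*) and 1 liver rich in blood transcripts limit what can be seen. WT vehicle replicate 2, which differed from the other vehicle livers, limits it as well. The cause of the changes below was not tested.

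Members called were 0 in WT, 3 with DESeq2's Wald test, 2 with all 12 livers in one fit and 0 to 1 with 1 liver left out (*Sat1*, without WT APAP replicate 2). Under the KO label 5 were called, 2 on quantile-normalized log2(TPM + 1), 3 on log2(TPM + 0.1) and 2 to 5 with 1 liver left out (2 without KO vehicle replicate 2). Over both labels 4 were called, and 4 to 6 with 1 liver left out (6, with *Alox5* and *Acsl3*, without WT vehicle replicate 2). Members called stayed at 0 in both comparisons of labels and in the interaction under every alternative run.

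Of all genes, 322 were called in WT, 1311 with DESeq2's Wald test, 1523 with all 12 livers in one fit, 62 with the replicate block and 41 to 442 with 1 liver left out (41 without WT vehicle replicate 3, 43 without WT vehicle replicate 1 and 68 without WT APAP replicate 3). Under the KO label 3538 were called, 2249 with all 12 livers in one fit and 1995 to 3368 with 1 liver left out (1995 without KO vehicle replicate 2 and 2071 without KO APAP replicate 3). Between labels after APAP 5 were called, against 36 (DESeq2), 1 (at least 10 counts), 0 (all 12 livers), 1 (replicate block), 10 (log2(TPM + 0.1)) and 1 to 7 (1 liver left out). With vehicle 4 were called, against 121, 0 (all 12 livers), 0 (replicate block), 17 and 0 to 16. The interaction gave 0, against 8 (DESeq2), 3 (log2(TPM + 0.1)) and 0 to 2. Same-numbered livers did not deviate together (correlations from -0.26 to 0.05). With deviations taken within groups of 3 livers, these correlations cannot decide whether livers were paired. The replicate block changed no member's call.

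Signs changed only for values that were not called. On both TPM scales *Gpx4* turned to -0.10 in WT, -0.0755 and -0.0757 between labels after APAP, -0.0273 and -0.0274 with vehicle and -0.0551 and -0.0552 in the interaction, and *Lpcat3* to -0.0036 and -0.0044 with vehicle. With the replicate block *Alox12* turned to -0.0825 between labels with vehicle. With 1 liver left out the ranges that crossed 0 were as follows. In WT they were -0.26 to 0.13 for *Lpcat3* and -0.14 to 0.14 for *Gpx4*. Under the KO label *Alox15* ranged from -0.41 to 0.38. Over both labels the ranges were -0.28 to 0.19 for *Alox15* and -0.12 to 0.0154 for *Gpx4*. Between labels after APAP they were -0.18 to 1.10 for *Alox12*, -0.79 to 0.23 for *Alox15* and -0.50 to 0.13 for *Acsl4*. With vehicle they were -0.36 to 0.39 for *Alox12*, -0.0055 to 0.58 for *Acsl3*, -0.0569 to 0.34 for *Lpcat3*, -0.012 to 0.11 for *Gpx4*, -0.26 to 0.17 for *Aifm2* and -0.0657 to 0.68 for *Sat1*. In the interaction they were -0.23 to 1.07 for *Alox12*, -3.35 to 1.84 for *Alox5*, -0.77 to 0.26 for *Alox15*, -0.59 to 0.0655 for *Acsl4*, -0.45 to 0.12 for *Acsl3*, -0.10 to 0.30 for *Lpcat3*, -0.0416 to 0.29 for *Gpx4* and -0.33 to 1.19 for *Sat1*. Of 1324 values of named genes under the alternatives, 1142 kept their direction and their side of the threshold, 130 lost and 7 gained a call, and 45 changed sign.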
